A study of Mus musculus with 8 samples.

Results

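Cells sorted as haematopoietic stem cells and labelled as lacking ADAR1 were compared with cells labelled as keeping 1 intact copy of its gene. The comparison used 6 of the 8 arrays of the series, the 3 whose titles mark the mouse as null and the 3 whose titles mark it as heterozygous. All 6 mice were of the C57/B6 strain. The 3 null mice carried Adar -/- and the 3 heterozygous mice Adar +/-, so the control cells also lacked 1 copy. Cells were taken from fetal liver and sorted as Lin-Sca+Kit+, and RNA from each mouse was put on an array of its own. The 2 wild-type arrays entered no mean of this comparison and served to estimate the variance. The sources used here do not give the gestational age, the kind of allele or whether the mice were littermates.

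ADAR1 is an enzyme that deaminates adenosines of double-stranded RNA to inosine, and its interferon-induced form acts in the cytoplasm. Cells carry sensors of unedited double-stranded RNA, among them MDA5 and RIG-I, which signal through MAVS to the interferon regulatory factors, and the kinase PKR, which slows translation by phosphorylating the initiation factor eIF2. Secreted type I interferon binds its receptor and sends a complex that holds STAT2 and IRF9 to interferon-stimulated response elements, short promoter motifs in front of many antiviral genes. The fetal liver is the main site of blood formation before birth and holds stem cells beside erythroid cells, macrophages and hepatoblasts.

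The arrays of the groups differed in overall quality and spread. Probe sets above background, defined on each array by its brightest bacterial control, made up 51.2% to 61.2% in heterozygous and 40.0% to 46.4% in null samples. Hybridisation spikes averaged 10.1 to 10.3 log2 units in heterozygous and 10.6 to 11.5 in null samples. For Gapdh, the intensity at the 3′ end over that at the 5′ end was 4.78 to 8.996 and 7.45 to 8.73, so these ranges overlapped. As a description over probe sets, which share each array, the pairwise correlation was 0.968 to 0.973 within heterozygous and 0.862 to 0.886 within null. Among 23859 probe sets measured in both groups the median SD was 0.26 log2 units in heterozygous and 0.54 in null cells, and the null SD was the larger in 77.9%. Heterozygous arrays 1 and 3 and null array 1 showed a male pattern of sex-linked transcripts. The part of these differences in the results below was not tested. In bulk RNA, fewer cells of a type and less RNA per cell cannot be told apart.

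Adar itself was read by 3 probe sets. The brightest gave 59.8, 144 and 176 linear intensity units on the null arrays and 13.1, 16.1 and 9.89 on the heterozygous arrays, so every null array was the higher. The difference was 3.17 ± 0.49 log2 units (SE, n = 3 and 3), which missed the threshold (limma, Benjamini-Hochberg adjusted p = 0.0681). It passed in 8 of 20 alternative fits, with adjusted p from 0.0260 to 0.255. The other Adar probe sets differed by -0.24 and 0.65 log2 units (adjusted p = 0.666 and 0.490). The sources used here do not say where these probe sets lie relative to the deleted part of the gene, so their values do not check the labels, and null and heterozygous stand for arrays labelled so.

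The sort markers were only partly visible. Kit, the stem cell factor receptor used in the sort, read 13.3, 9.33 and 9.86 on the null and 23.5, 15.7 and 13.2 on the heterozygous arrays with its brighter probe set, against array backgrounds of 6.20 to 9.29. Ly6a, which encodes Sca-1, had no probe set of its own and was not measured here. Of 40 stem and progenitor genes measured, 5 were at background in both groups. Some megakaryocyte genes were well above background in both groups: Pf4, a platelet chemokine, read 4280, 3319 and 2964 on the null and 4022, 3611 and 4043 on the heterozygous arrays. Others were not: Gp5 of the same list read 9.39, 18.4 and 24.8 on the null and 31.9, 28.4 and 26.1 on the heterozygous arrays. Itgb3, the platelet integrin beta chain, differed by 0.00 ± 0.16 log2 units (adjusted p = 0.998). These values do not establish the identity of the cells, and stem cells here stand for cells labelled as sorted Lin-Sca+Kit+.

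Loss of the remaining Adar copy was accompanied by large increases of few genes and smaller decreases of others. Of 45037 probe sets, 118 rose (0.262%) and 108 fell (0.24%) at an adjusted p of 0.05, 226 in all (0.502%). Without adjustment 4.52% were higher and 6.81% lower, and the arrays of the groups did not overlap in 12.2% and 9.28%. With each gene represented by its brightest probe set, 83 of 18193 genes rose (0.456%) and 57 fell (0.313%), 0.77% together. For genes the shares without adjustment were 5.12% higher and 7.88% lower, and non-overlapping arrays were found in 12.2% and 10.3%. The 83 higher genes had a median difference of 4.31 log2 units, which is 19.9-fold, and spanned 1.27 to 8.13. The 57 lower genes had a median size of 2.01 log2 units, 4.02-fold, and spanned 0.80 to 5.78. In this fit the called genes that rose had the larger median size. These sizes are of genes selected by the threshold, and the numbers in each direction shifted with the scaling, as given below. Over all genes the median difference was 0.06 log2 units.

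**Figure D1:**
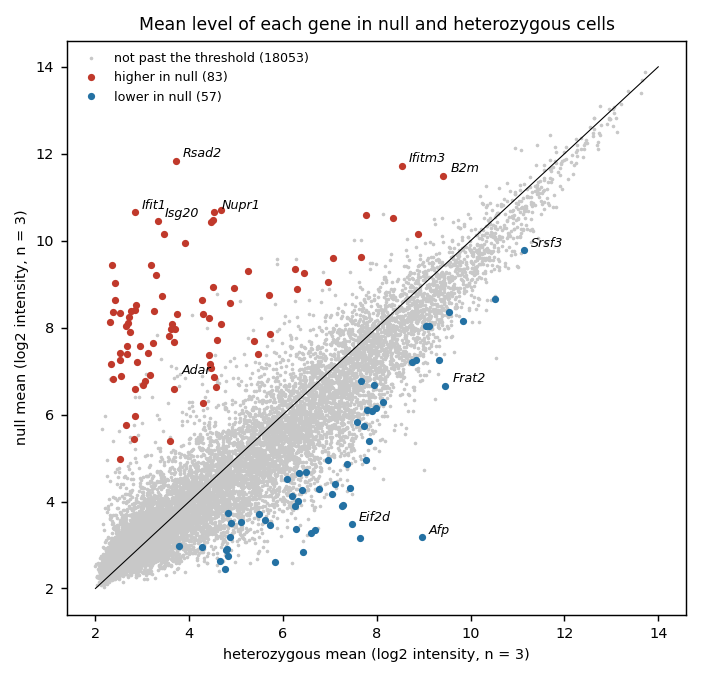
Each point is a gene, with its mean log2 intensity over the 3 heterozygous arrays on the horizontal axis and over the 3 null arrays on the vertical axis, and the line marks equal levels. The 83 higher genes (red) lie far above the line and many start near background, and the 57 lower genes (blue) lie closer below it.

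The count of calls depended on single arrays. Without heterozygous array 1, 2 or 3, probe sets that rose numbered 48, 49 and 52, and those that fell 15, 24 and 30. Without null array 2 there were 183 and 398. Another scaling shifted the balance of directions: quantile normalization gave 133 higher and 58 lower, and cyclic loess 143 and 43, which raised the share of higher calls from 52.2% to 69.6% and 76.9%. Of the 83 higher genes, 32 kept their call without each of the 8 arrays, against 4 of the 57 lower genes, namely Frat2, Guk1, Maf and Tiprl.

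Other probe sets of the same genes gave a second reading. For 44 of the higher genes 60 further probe sets existed, of which 57 also read higher and 18 passed. For 32 of the lower genes there were 67 further probe sets, of which 44 also read lower and 3 passed.

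Antiviral effectors, proteins that block steps of viral replication, held more of the genes that rose than any other list. The lists were chosen with earlier results of these data known, so this rank and the list counts below are descriptions. Of all genes 0.456% rose and 0.313% fell, shares to set beside those counts. Of 29 antiviral effectors measured, 14 rose and 0 fell, with a list median of 2.96 log2 units. Rsad2 encodes viperin, an enzyme that makes a chain-terminating nucleotide. Its intensities were 4327, 6054 and 1856 on the null and 20.2, 14.8 and 7.49 on the heterozygous arrays. The lowest null array was thus far above the highest heterozygous one, and the difference was the largest of all genes that rose, 8.13 ± 0.52 log2 units or 279-fold (limma, adjusted p = 0.00268).

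Ifit1 binds viral RNA that lacks cap methylation. It read 707, 3817 and 1549 in null and 6.78, 7.60 and 7.12 in heterozygous cells, a rise of 7.81 ± 0.55 log2 units (adjusted p = 0.00376). The heterozygous values lay near background and close together, and the spread came from the null arrays. Isg20, an exonuclease that degrades RNA, read 2346, 1259 and 929 against 14.8, 9.86 and 6.92, a rise of 7.12 ± 0.42 (adjusted p = 0.00193). Ifit3, a partner of Ifit1, read 2643, 1371 and 416 against 13.98, 9.44 and 9.97, a rise of 6.71 ± 0.62 (adjusted p = 0.0115). Its null array 3 was the nearest to the controls, and the Ifit3 call was lost without heterozygous array 1, 2 or 3 (adjusted p = 0.0641, 0.0699 and 0.0679, and 0.00146 to 0.0699 over all alternatives).

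The next effectors act at membranes. Bst2, or tetherin, which holds budding virions at the cell surface, read 2866, 1012 and 1576 in null and 20.0, 39.2 and 21.3 in heterozygous cells, a rise of 6.02 ± 0.45 log2 units (adjusted p = 0.00484). Ifitm3, which blocks viral entry from endosomes, read 3483, 3678 and 2978 against 336, 385 and 391. Its increase of 3.19 ± 0.15 log2 units (adjusted p = 0.000671) was smaller, but it started from a level well above background and the null arrays agreed closely. Its relatives Ifitm1 and Ifitm2 read -0.76 and -0.50 log2 units and missed the threshold.

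The genes of the dynamin-like GTPases Mx1 and Mx2 both rose. Their values are of transcripts and do not show a working protein. Mx2 was at background on all heterozygous arrays, with 482, 330 and 225 in null and 5.49, 5.13 and 4.89 in heterozygous cells, so it was at least 49.8-fold higher (adjusted p = 0.000671). Here and below such a bound sets the null mean against array background. Mx1 rose by 5.39 ± 0.40 log2 units (adjusted p = 0.00484). The remaining effectors that rose were Xaf1, Tor3a, Rtp4, Tdrd7, Cmpk2 and Ifi35, by 2.83 to 5.63 log2 units. Of these Rtp4, Tdrd7 and Ifi35 lost their calls without heterozygous array 1, 2 or 3 (adjusted p up to 0.0727, 0.126 and 0.126, within 0.0014 to 0.126 over their alternatives), and Ifi35 also without null array 1, 2 or 3 (up to 0.0786). Among those that missed the threshold, Ifit2 differed by 4.19 ± 0.60 (adjusted p = 0.05002) and the RNA helicase Mov10 by 2.96 ± 0.86 (adjusted p = 0.303).

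**Figure D2:**
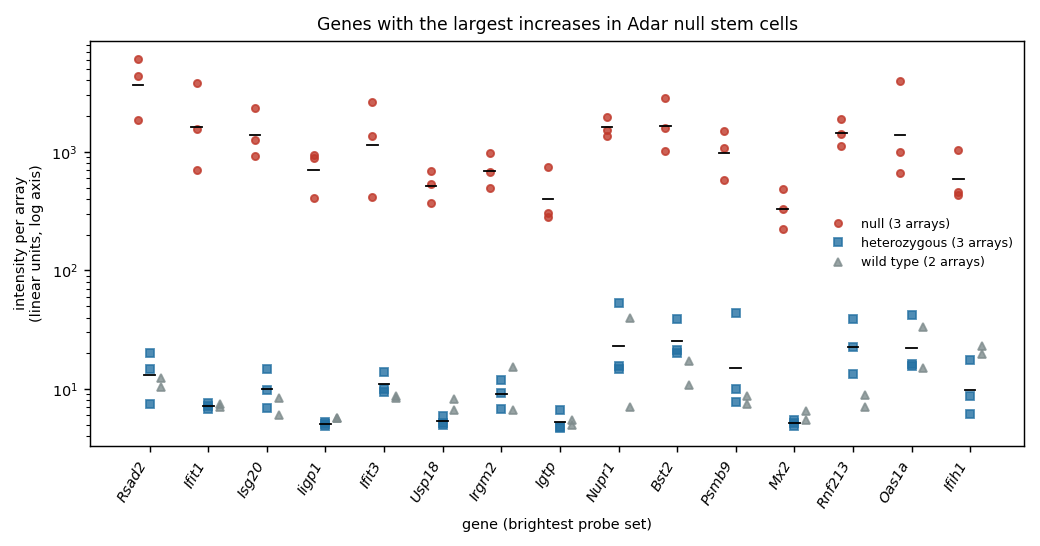
Linear intensity (log axis) of the 15 genes with the largest increases on each null (red circles), heterozygous (blue squares) and wild-type (grey triangles) array, with a bar at the geometric mean of the null and the heterozygous arrays. For every gene shown all 3 null arrays lie above all 5 other arrays, and the spread among null arrays is widest for Ifit1, Ifit3 and Oas1a.

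Promoter letters were examined because the genes that rose most are known targets of interferon. Windows from 250 bases before to 50 after the start of transcription came from RefSeq (GRCm38.p6) and were present for 67 of the 83 higher genes. The core of the interferon-stimulated response element, searched on both strands as GAAA, any 2 bases and a second GAAA, was in a window of 29 of the 67 (43.3%), of 1 of 46 lower genes (2.17%) and of 3.63% of 14452 measured genes. The 5 genes with the largest increases that hold a match are printed here, 5′ to 3′ along the gene, with the match in capitals. Matches on the opposite strand read as the reverse complement. The windows are Rsad2, chr12:26456403-26456702 on the minus strand, and on the plus strand Ifit1, chr19:34640639-34640938, Ifit3, chr19:34583279-34583578, Irgm2, chr11:58214727-58215026, and Igtp, chr11:58199306-58199605.
Rsad2: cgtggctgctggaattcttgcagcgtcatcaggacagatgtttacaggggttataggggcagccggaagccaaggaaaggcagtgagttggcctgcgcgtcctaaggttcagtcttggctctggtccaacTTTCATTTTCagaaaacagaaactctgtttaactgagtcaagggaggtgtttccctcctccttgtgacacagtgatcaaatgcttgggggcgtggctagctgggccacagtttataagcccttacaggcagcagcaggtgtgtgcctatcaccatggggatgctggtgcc
Ifit1: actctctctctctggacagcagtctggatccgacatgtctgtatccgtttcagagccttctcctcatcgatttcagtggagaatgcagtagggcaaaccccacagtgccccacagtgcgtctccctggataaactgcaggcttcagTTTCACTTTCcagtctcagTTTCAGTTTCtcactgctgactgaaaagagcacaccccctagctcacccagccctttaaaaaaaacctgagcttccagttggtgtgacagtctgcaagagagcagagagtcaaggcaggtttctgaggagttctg
Ifit3: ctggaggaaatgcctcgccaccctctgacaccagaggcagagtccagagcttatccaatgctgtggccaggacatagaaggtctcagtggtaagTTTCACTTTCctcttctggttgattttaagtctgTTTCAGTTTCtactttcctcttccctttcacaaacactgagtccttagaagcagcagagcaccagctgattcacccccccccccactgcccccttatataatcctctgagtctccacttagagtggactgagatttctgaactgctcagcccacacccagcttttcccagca
Irgm2: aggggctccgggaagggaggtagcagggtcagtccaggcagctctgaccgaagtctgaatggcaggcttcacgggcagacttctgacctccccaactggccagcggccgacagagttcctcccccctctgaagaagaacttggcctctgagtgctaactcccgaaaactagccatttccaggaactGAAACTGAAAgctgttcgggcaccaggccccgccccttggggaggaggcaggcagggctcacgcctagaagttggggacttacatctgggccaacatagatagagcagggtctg
Igtp: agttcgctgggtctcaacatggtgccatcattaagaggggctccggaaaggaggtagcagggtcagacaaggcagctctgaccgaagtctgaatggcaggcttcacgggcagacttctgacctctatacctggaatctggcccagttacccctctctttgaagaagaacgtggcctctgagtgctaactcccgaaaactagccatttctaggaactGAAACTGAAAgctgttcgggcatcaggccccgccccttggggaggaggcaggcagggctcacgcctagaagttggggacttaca
The match in Rsad2 began 120 bases before the start. Ifit1 held matches 104 and 85 bases before it and Ifit3 held them at 156 and 122. In Irgm2 and Igtp, neighbouring genes of the immunity-related GTPase family, the matches lay 64 and 34 bases before the start. The core of the gamma-activated site, TTCNNNGAA, was in windows of 13 of the 67 higher genes (19.4%), of 0 of the 46 lower genes and of 8.57% of measured genes. A match describes letters in the window and is not shown to be bound, and no match says only that the letters are not in this window.

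Sensors of foreign nucleic acid were the next list. Of 23 measured with their adaptors, 9 rose and 0 fell, with a median of 2.18 log2 units. Without heterozygous array 1, 2 or 3 the count was 2, 4 and 5, and without null array 3 it was 13. Ifih1, which encodes MDA5, the sensor of long double-stranded RNA, read 433, 1039 and 456 in null and 8.72, 6.18 and 17.5 in heterozygous cells, a rise of 5.91 ± 0.48 (adjusted p = 0.00559). Every null array exceeded every heterozygous array by a wide gap, and the call just missed without heterozygous array 1 (adjusted p = 0.0502, and 0.00218 to 0.0502 over all alternatives).

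Ddx58, which encodes RIG-I, the sensor of 5′ triphosphate RNA, rose by 4.27 ± 0.54 log2 units (adjusted p = 0.0336). Its values were 214, 514 and 141 in null and 9.31, 16.8 and 13.7 in heterozygous cells. Dhx58, or LGP2, which modulates both sensors, was at least 17.1-fold higher (adjusted p = 0.00484). Zbp1, which binds left-handed double-stranded nucleic acid, read 251, 73.3 and 92.3 against 5.16, 6.66 and 5.69 and was at least 18.1-fold higher (adjusted p = 0.0149). The Zbp1 groups did not overlap, but its call was lost without heterozygous array 1, 2 or 3 (adjusted p = 0.0881, 0.0758 and 0.0841, and 0.00285 to 0.147 over all alternatives).

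Eif2ak2, the gene for PKR, was already above background in heterozygous cells at 110, 78.0 and 79.2 and read 702, 805 and 407 in null cells. It rose by 2.80 ± 0.31 log2 units, 6.97-fold (adjusted p = 0.0221). The 2′-5′ oligoadenylate synthetases, which activate the nuclease RNase L, rose by 5.97 ± 0.75 (Oas1a), 5.56 ± 0.47 (Oasl2) and 5.41 ± 0.44 (Oas3). Ddx60, a helicase cofactor of these sensors, rose by 4.72 ± 0.38. Without single heterozygous arrays the calls of Eif2ak2, Oas1a and Ddx58 were lost for each (adjusted p up to 0.109, 0.153 and 0.153), that of Oasl2 for arrays 1 and 2 (0.0564 and 0.0517) and that of Oas3 for array 1 (0.0501). Eif2ak2 and Ddx58 also lost theirs without null array 1 (0.0657 and 0.0842) and Oas1a without either wild-type array (0.0578). Over their alternatives these 5 genes ranged from 0.000265 to 0.153. Tlr3, an endosomal receptor, read 235, 456 and 17.1 against 6.53, 7.36 and 12.7. Its null arrays differed among themselves so much that 3.85 ± 1.14 did not pass (adjusted p = 0.307). Among adaptors, Mavs differed by 1.46 ± 1.28 and missed the threshold (adjusted p = 0.639), and Sting1 was at background in both groups.

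No interferon ligand, receptor or receptor kinase passed, 0 of 14 measured, with 1 at an unadjusted p under 0.05. That gene was Ifnb1, interferon beta, which read 43.2, 11.8 and 9.51 in null cells and 6.11, 4.97 and 4.91, at background, in heterozygous cells. All 3 null arrays were above the controls, and the difference was 1.67 ± 0.54 log2 units (adjusted p = 0.348). Jak1, a receptor kinase, read -1.34 ± 0.74 and Ifnar2, a receptor chain, -1.13 ± 0.99, with adjusted p of 0.519 and 0.637. The list median was -0.01.

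Transcription factors of the pathway were divided. Of 14 Stat and Irf genes measured, 4 rose and 0 fell, while the median was 0.02. Without heterozygous array 1, 2 or 3 the count was 2 each time. Irf7, the factor that amplifies interferon gene transcription, read 249, 175 and 632 against 6.39, 6.04 and 7.18, a rise of 5.53 ± 0.44 (adjusted p = 0.00557). Stat2, a part of the interferon-activated complex, read 127, 135 and 99.8 against 8.03, 8.95 and 9.85, a rise of 3.74 ± 0.17 (adjusted p = 0.000671). The null arrays of Stat2 lay within a narrow band, unlike those of Irf7. Irf1 rose by 3.81 ± 0.41 and Irf9, the DNA-binding part of that complex, by 2.93 ± 0.39 (adjusted p = 0.0204 and 0.0374). Both lost their calls without heterozygous array 1, 2 or 3, Irf1 also without null array 1 and Irf9 without null array 3 (adjusted p up to 0.0991 and 0.167, within 0.00955 to 0.167 over their alternatives). Stat5a, which serves cytokine receptors, read -2.62 ± 0.60 and Irf3 -1.34 ± 0.34, and both missed the threshold.

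Of 14 genes that restrain interferon signalling, 1 rose and 0 fell. This was Usp18, which removes ISG15 and blocks the interferon receptor. It read 541, 688 and 374 in null cells and 5.92, 5.16 and 4.99, at background, in heterozygous cells. It was at least 78.4-fold higher (adjusted p = 0.000385), and the call held in each of 20 alternative fits. The suppressors Socs1 and Socs3 differed by 0.43 ± 0.12 and 0.13 ± 0.13 and missed the threshold. In the ISG15 conjugation system, which attaches a ubiquitin-like protein to others, 2 of 4 measured genes rose, Usp18 and the ligase Herc6 (4.35 ± 0.29, adjusted p = 0.00311). The conjugating enzyme Ube2l6 read 32.8, 599 and 590 against 7.17, 16.6 and 8.12, with null array 1 near the controls, and missed the threshold (4.52 ± 1.12, adjusted p = 0.219).

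Among interferon-induced ubiquitin ligases of the Trim and Rnf families some rose, with 6 of 15 higher, 0 lower and a median of 3.10 log2 units. The count was 3 without any of the heterozygous arrays and 10 without null array 3. Rnf213, a very large ubiquitin ligase, read 1402, 1877 and 1118 against 22.8, 38.6 and 13.5, a rise of 5.97 ± 0.40 (adjusted p = 0.00285). Trim21, a cytosolic antibody receptor, rose by 4.05 ± 0.54 (adjusted p = 0.0384), but its call was lost without each single array except null array 3 (adjusted p up to 0.168, and 0.00452 to 0.168 over all alternatives). Dtx3l, the partner ligase of Parp9, read 619, 496 and 380 against 24.4, 20.2 and 24.3, a rise of 4.42 ± 0.20 (adjusted p = 0.000671). The Dtx3l groups were tight and widely apart.

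Of 14 poly-ADP-ribose polymerases, which attach ADP-ribose to proteins, 4 rose, namely Parp9 (5.31 ± 0.54), Parp14 (4.59 ± 0.47), Parp12 (4.36 ± 0.33) and Parp11 (2.61 ± 0.17). The list median was 0.25, and the DNA repair member Parp1 read -2.11 ± 0.89 without passing (adjusted p = 0.441). Without heterozygous array 1, 2 or 3 the count was 3, 2 and 2. Parp9 lost its call without each of them and Parp14 without array 2 or 3 (adjusted p up to 0.0768 and 0.0883, within 0.00544 to 0.0883 over their alternatives). Parp14, Dtx3l and Parp9 lie next to each other in the genome. They formed the longest of 6 runs of neighbouring higher genes among 18142 placed genes. The other runs were Rsad2 with Cmpk2, Igtp with Irgm2, Slfn5 with Slfn9, Trim30a with Trim30d and Gm20559 with Samd9l, 13 genes in all.

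The Schlafen family, which includes tRNA nucleases, had 3 of 8 genes higher. Slfn5 read 322, 378 and 283 in null cells and was at background in heterozygous cells, at least 49.2-fold higher (adjusted p = 0.000309). Slfn2, which shields tRNA, rose by 3.75 ± 0.26 (adjusted p = 0.00376) and Slfn9 by 3.10 ± 0.39 (adjusted p = 0.0314). Slfn9 lost its call without each of the heterozygous and wild-type arrays and without null array 1 (adjusted p up to 0.136, and 0.0179 to 0.136 over all alternatives). Of 7 genes of the p200 family, which holds DNA sensors, 0 passed with limma. With null higher, 2 had an unadjusted p under 0.05, beside 5.12% of all genes.

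Several GTPases that attack the vacuoles of intracellular parasites rose. Of 11 measured immunity-related and guanylate-binding GTPases, 4 rose, 0 fell and 9 had non-overlapping arrays, with a median of 3.76 log2 units. Among all genes, non-overlapping arrays with null higher were found in 12.2%. Iigp1 read 948, 893 and 405 in null and 5.08, 4.89 and 5.28 in heterozygous cells and was at least 106-fold higher (adjusted p = 0.000671). Igtp was at least 60.4-fold higher (adjusted p = 0.00230) and Irgm2, a regulator of the family, rose by 6.25 ± 0.40 (adjusted p = 0.00268). Gbp7, a guanylate-binding protein, rose by 3.95 ± 0.43 (adjusted p = 0.0209), and its call was lost without heterozygous array 1, 2 or 3 (adjusted p = 0.107, 0.0751 and 0.0940, and 0.00167 to 0.107 over all alternatives). Gbp3 and Gbp2 differed by 4.51 ± 0.68 and 3.76 ± 0.92 and missed the threshold.

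Some genes of antigen presentation by MHC class I rose. Of 18 genes measured, 5 rose and 0 fell, with a median of 1.71 log2 units. The count was 2, 3 and 2 without heterozygous array 1, 2 or 3 and 2 without null array 1. H2-K1, a classical heavy chain, read 794, 807 and 724 against 164, 119 and 126, a rise of 2.52 ± 0.19, 5.74-fold (adjusted p = 0.00484). B2m, the light chain, read 2706, 3296 and 2703 against 734, 563 and 765, a rise of 2.08 ± 0.25 (adjusted p = 0.0287). For both chains the groups were far apart and the null arrays close together, though the B2m call was lost without heterozygous array 1, 2 or 3 and without null array 1 or 3 (adjusted p up to 0.126, and 0.0140 to 0.126 over all alternatives). Nlrc5, the transactivator of class I genes, gave 102, 103 and 102 against 7.69, 6.51 and 10.4, a rise of 3.66 ± 0.20 (adjusted p = 0.00153).

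Psmb9, an immunoproteasome subunit, read 1499, 1081 and 579 against 7.83, 43.5 and 10.1 and rose by 6.02 ± 0.68 (adjusted p = 0.0223). Heterozygous array 2 stood above the other controls, and the Psmb9 call was lost without heterozygous array 1 or 3, null array 1 or either wild-type array (adjusted p up to 0.105, and 0.00842 to 0.105 over all alternatives). Psmb8, another such subunit, differed by 4.23 ± 0.76 and the peptide transporter gene Tap1 by 2.96 ± 0.43, and both missed the threshold (adjusted p = 0.108 and 0.0538). The constitutive proteasome did not share this direction: of 26 subunits 25 read below 0, with a median of -0.65 log2 units (-0.27 with cyclic loess). None of the 26 passed with limma, and 9 had an unadjusted p under 0.05, all lower, a share set beside 7.88% of all genes. The subunit at the low end, Psmb7, which Psmb10 replaces in the immunoproteasome, read -1.50 ± 0.57 (adjusted p = 0.410).

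Chemokines and NF-kappaB targets gave little beyond a single gene. Cxcl10, which attracts T cells, was the only chemokine of 26 measured to pass. It read 773, 320 and 88.8 in null cells and 5.11, 4.99 and 4.77, at background, in heterozygous cells, at least 42.3-fold higher (adjusted p = 0.0290). The null values spanned a wide range, and its call was lost without each of the heterozygous arrays (adjusted p up to 0.135) and each of the wild-type arrays (0.0599), within 0.00355 to 0.206 over all alternatives. Of 21 NF-kappaB subunits and targets 0 passed with limma, and 6 had an unadjusted p under 0.05, 3 in each direction. Among all genes these shares were 5.12% higher and 7.88% lower. Tnfaip3, a feedback inhibitor of NF-kappaB, read 14.9, 36.0 and 6.07 against 8.52, 7.24 and 7.81.

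A few stress genes downstream of the factor Atf4 rose. Of 29 measured genes of the Atf4 and unfolded protein response, 3 rose and 0 fell, with a median of 0.43 log2 units. The count was 1 without any of the heterozygous arrays, 2 without null array 1 and 1 without null array 3, which moved the median to 0.90, and cyclic loess moved it to 0.85. Nupr1, a stress-induced chromatin protein, read 1978, 1541 and 1361 in null and 15.7, 14.9 and 52.7 in heterozygous cells, a rise of 6.12 ± 0.73, 69.6-fold (adjusted p = 0.0280). Heterozygous array 3 was above the other controls yet far below every null array. The Nupr1 call was lost without heterozygous array 1, 2 or 3 and without null array 1 or 3 (adjusted p up to 0.134, and 0.00856 to 0.134 over all alternatives).

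Trib3, a pseudokinase that curbs Atf4, read 298, 434 and 380 against 5.75, 5.57 and 12.2, a rise of 5.65 ± 0.33 (adjusted p = 0.00187) that held in each of 20 alternatives. Ddit3, which encodes the factor Chop, read 453, 357 and 659 against 89.4, 71.6 and 77.6, a rise of 2.58 ± 0.34 (adjusted p = 0.0358). The calls of Ddit3 and of Mthfd2, a mitochondrial folate enzyme outside the list that rose by 2.10 ± 0.24 (adjusted p = 0.0230), were lost without the same 5 arrays as that of Nupr1 (up to 0.162 and 0.100, within 0.00322 to 0.201 over their alternatives). Atf4 read 937, 792 and 696 against 391.5, 433 and 375. Its arrays did not overlap, but 1.01 ± 0.15 log2 units missed the threshold (adjusted p = 0.0584). Hspa5, the chaperone BiP and a standard mark of the unfolded protein response, read -0.59 ± 0.21 and missed the threshold (adjusted p = 0.383). Amino acid response elements drive several of these genes, so the Nupr1 promoter is shown, chr7:126625421-126625720 on the minus strand (RefSeq, GRCm38.p6), with the core in capitals.
Nupr1: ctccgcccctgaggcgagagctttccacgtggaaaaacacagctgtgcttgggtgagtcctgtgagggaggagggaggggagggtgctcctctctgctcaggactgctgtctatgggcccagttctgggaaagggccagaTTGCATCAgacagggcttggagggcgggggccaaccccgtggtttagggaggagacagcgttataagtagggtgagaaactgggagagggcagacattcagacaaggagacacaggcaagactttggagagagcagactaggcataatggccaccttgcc
The core, TTGCATCA on either strand, lay 110 bases before the start. It was in windows of 6 of 28 listed stress genes (21.4%), of 2 of 67 higher genes (2.985%), of 0 of 46 lower genes and of 0.803% of measured genes. The stress genes were listed for belonging to this response, so their share is not a result about null cells.

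No gene of the cell death and p53 lists passed in the main fit. Zbp1, Xaf1 and Ddit3, which rose, were placed in other lists, so the counts here leave them out. Of 29 cell death genes 0 passed with limma, and an unadjusted p under 0.05 was found for 6 with null higher and 5 with null lower. Among all genes these shares were 5.12% and 7.88%. Mlkl, which executes necroptosis, read 53.4, 107 and 28.3 against 5.22, 7.43 and 9.29, a difference of 2.93 ± 0.48 (adjusted p = 0.0785). Its groups did not overlap, and Mlkl passed in 7 of 20 alternative fits (adjusted p from 0.0341 to 0.290). At most 2 genes of the cell death list passed in any alternative fit. Fadd, an adaptor of death receptors, read -2.15 ± 0.74 (adjusted p = 0.372). Of 21 p53 genes 0 passed, and an unadjusted p under 0.05 was found for 5 with null higher and 4 with null lower. Gadd45g and Sesn2 of this list differed by 3.625 ± 0.55 and 2.10 ± 0.49 log2 units (adjusted p = 0.0624 and 0.197). Perp and Ei24 went the other way, with -2.13 ± 0.68 and -1.60 ± 0.24 (adjusted p = 0.343 and 0.0613). For each of these genes the arrays of the groups did not overlap. Gadd45g, Sesn2, Perp and Ei24 passed in 6, 1, 3 and 4 of 20 alternative fits. With the mean of the probe sets of a gene, 3 p53 genes passed. Cdkn1a, the p21 inhibitor of the cell cycle, read 52.3, 6.96 and 11.2 against 9.46, 12.1 and 9.997, so only null array 1 stood above the controls.

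Of the 83 genes that rose, 59 were in a list and 24 were in none. The lists were chosen with earlier results of these data known, so the 59 cannot show whether the genes that rose share a family. The following genes were chosen after their values were seen. Zup1, a protease for lysine-63-linked ubiquitin, read 261, 211 and 200 against 12.2, 11.5 and 11.7, a rise of 4.24 ± 0.14 (adjusted p = 0.000309). The arrays of each group lay very close together. Sp100, a nuclear body protein that silences viral DNA, rose by 5.16 ± 0.39 (adjusted p = 0.00484), and Cd274, the checkpoint ligand PD-L1, by 3.70 ± 0.44 (adjusted p = 0.0261). The kinase Pim1 rose by 1.96 ± 0.27 (adjusted p = 0.0462) and securin, Pttg1, by 1.27 ± 0.16 (adjusted p = 0.0341). Pttg1 was the smallest of the increases called. The calls of Cd274, Pim1 and Pttg1 were lost without heterozygous array 1, 2 or 3, those of Cd274 and Pim1 also without null array 1 or 3, and those of Pim1 and Pttg1 without either wild-type array (adjusted p up to 0.127, 0.194 and 0.161, within 0.00867 to 0.194 over their alternatives).

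Of the 57 genes that fell, 8 were in a list. The lists were chosen with earlier results of these data known, so this count cannot show whether the genes that fell share a family. Afp, alpha-fetoprotein of fetal hepatoblasts, had the lowest difference. It read 22.9, 4.79 and 6.75 in null and 617, 623 and 319 in heterozygous cells and fell by 5.78 log2 units, with an SE of 0.75 (adjusted p = 0.0354). Null array 1 was above the other null arrays and well below every control. The Afp call was lost without any heterozygous array and without null array 2 or 3 (adjusted p up to 0.169, and 0.0147 to 0.169 over all alternatives).

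Eif2d, a factor that recycles ribosomes and can place initiator tRNA without eIF2, read 8.79, 16.2 and 9.67 against 244, 109 and 207. It differed by -3.99 ± 0.38 log2 units (adjusted p = 0.0119). Its call was lost without heterozygous array 1 or 3 (adjusted p = 0.0657 and 0.0700), within 0.00577 to 0.349 over all alternatives. Among 41 translation initiation factors it was the only one to pass. The list median was -0.37, which became -0.62 without null array 2, -0.22 without null array 1 and -0.06 with cyclic loess. The uncharacterised transcript 0610012G03Rik differed by -4.47 ± 0.40 (adjusted p = 0.00889), a call lost without heterozygous array 1, 2 or 3 (up to 0.0576, and 0.00395 to 0.0576 over all alternatives).

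Large decreases with narrow spread were found in Guk1 and Frat2, which passed in each of 20 alternatives. Guk1, guanylate kinase, read 10.03, 12.7 and 8.70 against 88.4, 64.7 and 83.1, a difference of -2.92 ± 0.22 (adjusted p = 0.00488). Frat2, which binds GSK3 and favours Wnt signalling, read 83.0, 111 and 113 against 542, 816 and 787, a difference of -2.80 ± 0.22 (adjusted p = 0.00493). The groups of both genes were separated by several times their spread. Aph1a, a gamma-secretase subunit, was at background on all null arrays and at least 10.5-fold lower (adjusted p = 0.0261). Ncstn, another gamma-secretase subunit, rose by 2.33 ± 0.29 (adjusted p = 0.0313). Ufsp2, a protease that processes the ubiquitin-like UFM1, differed by -3.12 ± 0.43 (adjusted p = 0.0437), and Rnf145, a ligase of sterol control, by -3.37 ± 0.41 (adjusted p = 0.0300). Aph1a, Ncstn, Ufsp2 and Rnf145 lost their calls without heterozygous array 1, 2 or 3 and without null array 1, all but Rnf145 also without null array 3, and Ufsp2 without either wild-type array (adjusted p up to 0.126, 0.143, 0.186 and 0.145, within 0.0110 to 0.186 over their alternatives).

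Several lower genes act in mitochondria, a grouping made after their values were seen and with no count over all mitochondrial genes. Mthfd2, the mitochondrial folate enzyme named above, went the other way and rose. Gatb, which charges mitochondrial glutamine tRNA, read 17.2, 23.8 and 8.61 against 178, 124 and 168, a difference of -3.35 ± 0.37 (adjusted p = 0.0213). Sdhaf1, an assembly factor of complex II, read 36.8, 27.0 and 30.6 against 160, 226 and 288, a difference of -2.81 ± 0.26 (adjusted p = 0.0109). Complex I subunits Ndufb3 (-1.68 ± 0.18, adjusted p = 0.0207) and Ndufs1 (-1.80 ± 0.25, adjusted p = 0.0430) were lower too, as was Coa6, a complex IV factor, at least 3.27-fold (adjusted p = 0.0261). Idh3a, of the citric acid cycle, differed by -1.24 ± 0.17 (adjusted p = 0.0420). The Sdhaf1 call was lost without heterozygous array 2 (adjusted p = 0.0694, and 0.00536 to 0.0694 over all alternatives). The calls of Gatb, Ndufb3, Ndufs1, Coa6 and Idh3a were lost without heterozygous array 1, 2 or 3 and without null array 1 (up to 0.115, 0.115, 0.188, 0.130 and 0.187). Those of Ndufs1, Coa6 and Idh3a were lost without null array 3 too, that of Ndufs1 without null array 2 and that of Idh3a without either wild-type array, and the alternatives of these genes ranged from 0.0110 to 0.479.

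The wild-type arrays, which entered neither mean, stood differently beside the 2 sets. For all 83 higher genes both wild-type arrays were below every null array. For 51 of the 57 lower genes both were above every null array. However, in 36 of the 57 lower genes (63.2%) both wild-type arrays were also below every heterozygous array, against 12.4% of all genes and 16.9% of genes measured in both groups. In 16 lower genes, among them Rfc3, Ccne1, Ctdspl and Nucb2, the wild-type mean was nearer to null than to heterozygous. Ccne1, cyclin E1, read 21.3, 14.5 and 17.6 in null, 60.3, 78.4 and 84.2 in heterozygous and 25.3 and 19.2 in wild-type cells. Its heterozygous arrays were the ones that stood apart, and its call was lost without any of them (adjusted p up to 0.0904, and 0.00285 to 0.128 over all alternatives). Among the higher genes this held for 2, Ly6e and Mthfd2. Since the genes were chosen by this contrast, the wild-type positions are given as a description with no test.

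Most cell division genes read below 0 and missed the threshold. All 34 measured genes of the mitosis list were below 0, with a median of -0.98 log2 units (-0.56 with cyclic loess). With limma 0 of the 34 passed, and 10 had an unadjusted p under 0.05, all lower, beside 7.88% of all genes. Securin, Pttg1, was not in this list and was among the genes that rose (1.27 log2 units). Aurkb, the kinase of the chromosomal passenger complex, read 14.3, 46.7 and 28.2 against 124, 147 and 177 (-2.47 ± 0.47, adjusted p = 0.126). Of 36 DNA replication genes 1 fell, Rfc3, a subunit of the clamp loader, which read 12.7, 14.4 and 18.1 against 74.1, 63.4 and 95.3 (-2.36 ± 0.22, adjusted p = 0.0115). The Rfc3 call was lost without heterozygous array 1 or 3 (adjusted p = 0.0761 and 0.0506, and 0.00858 to 0.0761 over all alternatives). Without null array 2 or 3 the count of replication genes that fell was 3 and 2. The replication median was -0.61, with a range of -0.82 to -0.41 when single arrays were left out and -0.25 with cyclic loess.

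Of 19 cholesterol synthesis genes 0 passed, with a median of -0.70 (-0.24 with a pseudocount of 32) and 5 lower at an unadjusted p under 0.05. Among all genes 7.88% were lower at that level, a share to set beside this and the next lists. Of 27 cytosolic ribosomal proteins 0 passed with limma, 3 had an unadjusted p under 0.05 with null the lower, and the median was -0.11, which became 0.07 with cyclic loess. Of 40 DEAD and DEAH box helicases outside the sensors 0 passed, 6 had an unadjusted p under 0.05 with null the lower, with a median of -0.27 (-0.02 with cyclic loess). Dhx38, a splicing helicase, read -2.24 ± 0.33 (adjusted p = 0.0578). Among 8 editing enzymes and relatives 0 passed, with Adar at an unadjusted p under 0.05 and a median of 0.21. Of 10 housekeeping genes 8 read below 0 (7949 of 18193 among all genes), with a median of -0.48 (-0.16 with cyclic loess). Of the 10, 4 had non-overlapping arrays with null the lower, beside 10.3% of all genes. At the threshold B2m rose and Gusb, a lysosomal enzyme, differed by -2.48 ± 0.30 (adjusted p = 0.0277), a call lost without every single array except null arrays 2 and 3 (up to 0.123, and 0.0189 to 0.123 over all alternatives).

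**Figure D3:**
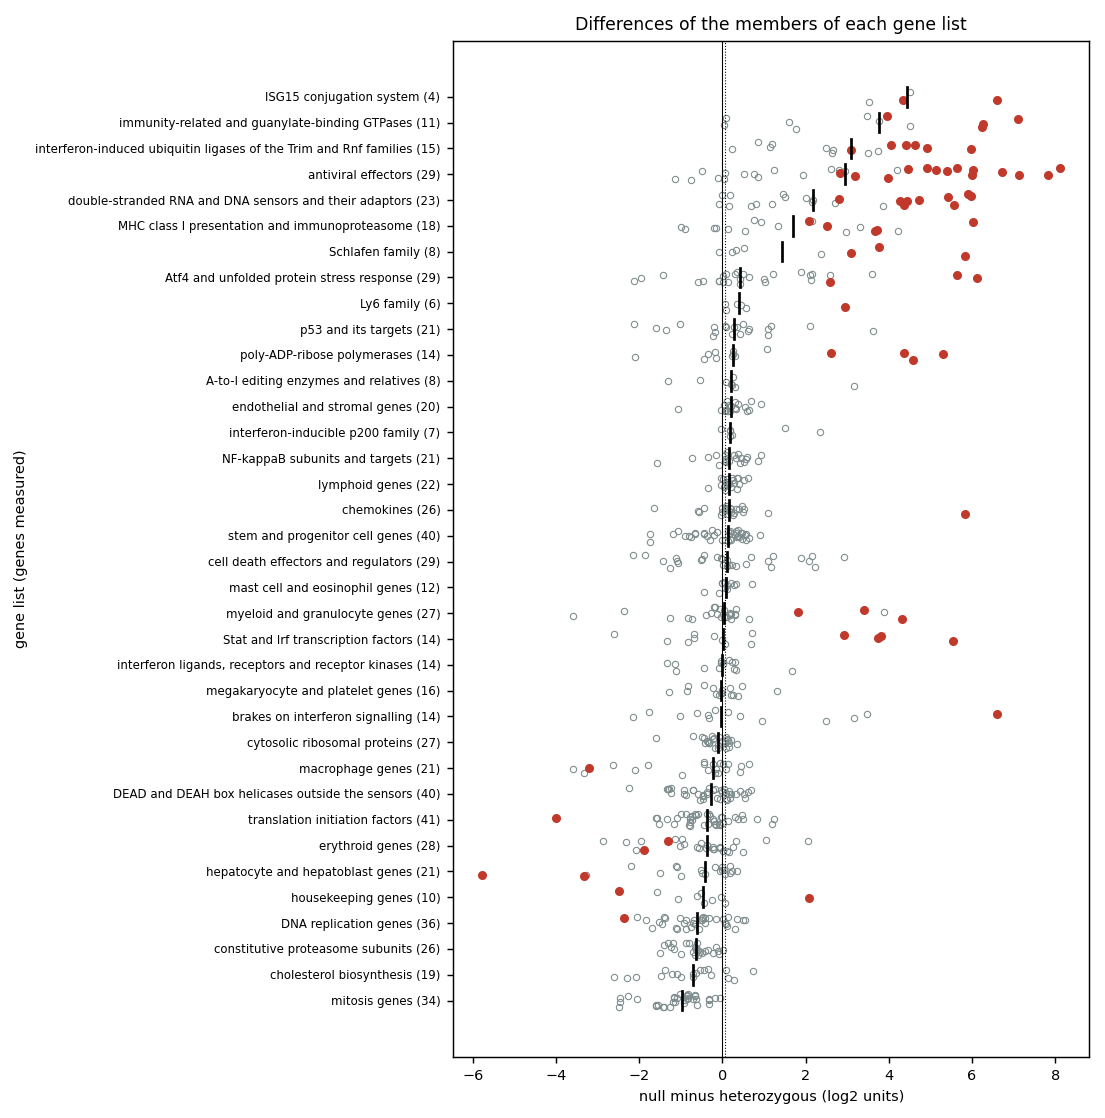
Difference between null and heterozygous means in log2 units for every measured member of each gene list except the sex-linked one, with filled red points for genes past the threshold, open points for the others, a black bar at the list median and a dotted line at the median of all genes. Interferon-related lists hold nearly all filled points on the right, and the listed mitosis genes, without Pttg1, lie wholly on the left with no filled point.

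Markers of other blood and liver cells were read beside these results. Hepatocyte and hepatoblast genes had 2 of 21 lower, Afp and Apoa2, an apolipoprotein (-3.32 ± 0.37, adjusted p = 0.0223). The Apoa2 call was lost without heterozygous array 1 or 3 and null array 1 or 3 (up to 0.119, and 0.0116 to 0.119 over all alternatives). The list mean was 2.86 to 3.04 log2 units on the null and 3.64 to 4.26 on the heterozygous arrays, and its median of -0.41 became -0.03 without heterozygous array 1. Alb, albumin, read 16.8, 13.7 and 6.73 against 50.3, 43.8 and 68.4 (-2.20 ± 0.43, adjusted p = 0.135). Ahsg, fetuin, was at 6.42 to 7.06 on all 6 arrays, near background. The part of liver transcripts in the decreases was not tested.

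Of 21 macrophage genes 1 fell, Maf, a macrophage transcription factor, which read 7.16, 4.37 and 7.22, at background, against 61.9, 63.2 and 46.2. It was at least 6.84-fold lower (adjusted p = 0.00493). The count of macrophage genes that fell became 3 without either wild-type array or with the 6 arrays alone, and 2 without heterozygous array 3 or null array 3. C1qb and C1qc, complement subunits of macrophages, and Csf1r, their growth factor receptor, read -3.33 ± 0.72, -2.62 ± 0.80 and -3.59 ± 0.62 and missed the threshold. All 3 had non-overlapping arrays, and C1qa was near background on every array. Of the 21 list genes, 6 had non-overlapping arrays with null the lower and 1 with null the higher. Among all genes these shares were 10.3% and 12.2%. The macrophage list mean was 2.93 to 3.19 on the null and 3.86 to 4.13 on the heterozygous arrays. Its part in the results was not tested.

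Of 28 erythroid genes 2 fell, the haem enzyme Uros (-1.31 ± 0.16, adjusted p = 0.0292) and the mitochondrial iron importer Slc25a37 (at least 3.37-fold lower, adjusted p = 0.0223). The list median of -0.38 became -0.12 without null array 1, -0.61 without null array 3 and -0.11 with cyclic loess. The count was 3 without null array 2. Both calls were lost without heterozygous array 1 or 2 and without null array 1 or 3, and Uros also without heterozygous array 3 or either wild-type array (adjusted p up to 0.143 and 0.112, within 0.0123 to 0.220 over their alternatives). Ermap, an erythroid membrane protein, read 35.6, 164 and 96.3 against 739, 466 and 652 and missed the threshold (-2.88 ± 0.53, adjusted p = 0.116).

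Myeloid and granulocyte genes included 3 of 27 that rose, while the median was 0.05. Csf2rb, the beta chain shared by the receptors for GM-CSF, interleukin 3 and interleukin 5, read 121, 145 and 291 against 6.48, 7.89 and 12.7, a rise of 4.31 ± 0.43 (adjusted p = 0.0136). Plac8 rose by 3.40 ± 0.38 (adjusted p = 0.0223) and Spi1, which encodes the myeloid factor PU.1, by 1.81 ± 0.24 (adjusted p = 0.0384). The count was 0 without heterozygous array 1 or 2 and 1 without heterozygous array 3 or null array 1. It was 2 without null array 2 or either wild-type array and stayed at 3 without null array 3. The Spi1 call was lost without each of the 8 arrays, null array 3 included (adjusted p up to 0.1505). Csf2rb lost its call without heterozygous array 1 or 2 (up to 0.0800). Plac8 lost its own without any heterozygous array and without null array 1 (up to 0.116). In the fits without heterozygous array 3 or either wild-type array, 1 gene of the list fell. Granule genes such as Mpo and Lyz2 read -1.27 and -2.37 log2 units and missed the threshold.

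Stem and progenitor genes gave 0 of 40 past the threshold with limma and a median of 0.14 that became -0.14 with a filter above background. An unadjusted p under 0.05 was found for 3 with null higher and 5 with null lower, beside 5.12% and 7.88% of all genes. Hmga2 and Igf2bp3, regulators of the fetal stem cell state, read -1.74 ± 0.57 and -1.73 ± 0.62 (adjusted p = 0.349 and 0.388). Megakaryocyte, lymphoid, mast cell and endothelial lists held 16, 22, 12 and 20 measured genes, and 0 passed with limma. At an unadjusted p under 0.05 these lists held 1, 1, 1 and 1 higher genes and 2, 0, 0 and 0 lower genes.

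**Figure D4:**
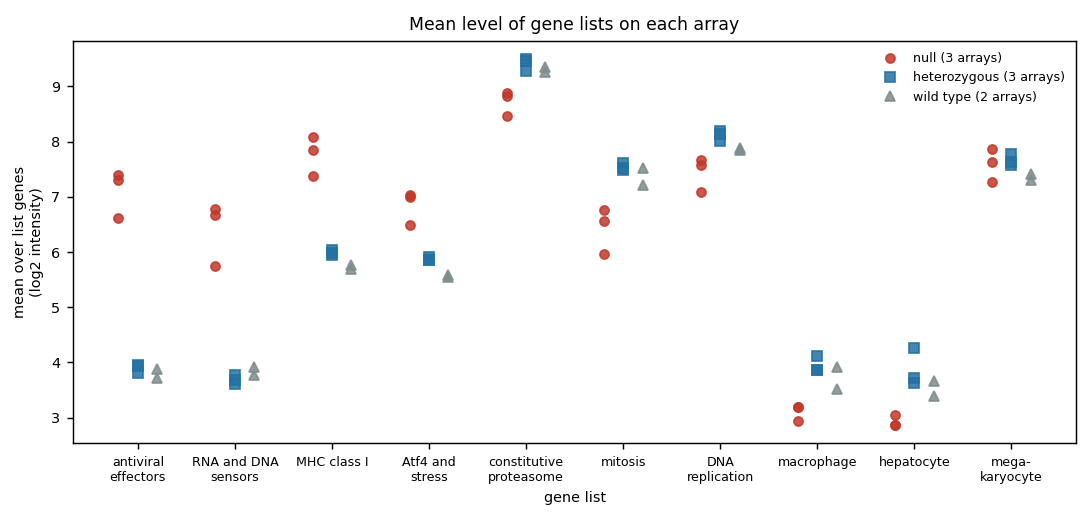
Mean log2 intensity over the measured genes of 10 lists on each null (red circles), heterozygous (blue squares) and wild-type (grey triangles) array. The null arrays are above all others for the antiviral, sensor, MHC class I and stress lists and below all others for the proteasome, mitosis, replication, macrophage and hepatocyte lists, and they overlap the others for megakaryocyte genes.

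The null arrays did not carry the increases equally. Among the 83 higher genes, null array 3 was the nearest to the heterozygous mean in 49, array 1 in 19 and array 2 in 15. Null array 2 was the farthest in 39, array 1 in 29 and array 3 in 15. The mean over antiviral effectors was 7.30, 7.40 and 6.61 log2 units on null arrays 1, 2 and 3 and 3.82 to 3.96 on the heterozygous arrays. Null array 3 was therefore lower than the other null arrays and still far above the controls. Irf7 and Csf2rb ran the other way, with their highest value on null array 3. Among the 57 lower genes the nearest array was number 2 in 24, number 3 in 18 and number 1 in 15.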

How the data were processed

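RNA of 8 sorted samples was hybridised to Affymetrix mouse 430 2.0 arrays after labelling with a Nugen kit, per the labels' protocols. The values the authors deposited give a linear intensity for each probe set, summarised by the authors with RMA (no version stated) per the submitters' processing notes. No column was left unused (0). Their log2 was used without further scaling. The 64 control rows among 45101 were not tested. The annotation named 1 gene for 34945, several for 932 and none for 9160, and 34741 names were matched to RefSeq. A gene is its brightest probe set, and probe sets with several genes name none. Array background is the highest of 27 Bacillus control probe sets.

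Null, heterozygous and wild-type means were fitted together in limma 3.58.1 (R 4.3.3; lmFit, then eBayes with no trend in the prior), leaving 5 residual degrees of freedom. The contrast was null minus heterozygous, two-sided, adjusted by Benjamini and Hochberg over 45037 probe sets. Error terms are limma standard errors with n = 3 and 3. They rest on 1 variance per probe set shared by the 3 groups. The null arrays varied more (median SD 0.54 against 0.26 log2 units in heterozygous cells). The SE and adjusted p can therefore understate the spread of the null arrays. The method was tested on simulated data. Members and gene lists were chosen with earlier results of these data known. Named genes are the 15 largest rises and 15 largest falls that passed and had non-overlapping arrays, per list at most 4 members, by size of difference, Adar, the sort markers and sex-linked transcripts. Further list members and others were named after their values were seen. The number of arrays limits the precision. Each sample came from a separate mouse, per the design text. Array numbers within a group follow the accessions and pair nothing.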

Additional observations from a re-analysis of the deposited data

How the results depend on the processing

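The fit on all 8 arrays gave 118 higher and 108 lower probe sets and 14 higher antiviral effectors. A pseudocount of 32 gave 64, 62 and 9. A covariate for the sex pattern gave 70 higher and 35 lower, and a variance prior with trend gave 39 lower. Quantile normalization gave 58 lower and cyclic loess 43. The other alternatives (the 6 arrays alone, a filter at the median, a filter on background, array weights, a robust prior, and the brightest or mean probe set per gene) kept these counts within 1.5 times. Leaving out each array in turn gave 48 to 183 higher and 15 to 398 lower probe sets and 10 to 16 antiviral effectors. The cause of these shifts was not tested. Over all alternatives, the named genes that rose kept their call 694 times and lost it 126 times, those that fell 232 and 108 times, and 0 reversed. Medians of the interferon ligand, Stat and Irf, brake, chemokine, ribosomal, stem cell, myeloid, megakaryocyte and mast cell lists changed sign in some settings. No paired analysis was possible because the titles carry mouse numbers that pair nothing across groups. Probe sets at background in a group give only a bound, which limits 12 of the higher and 6 of the lower genes.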
